A study of Mus musculus with 48 samples.

Results

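The libraries described here come from mouse embryonic fibroblasts (MEFs) without the chromatin proteins HMGN1 and HMGN2, sequenced before (day 0) and 4 days after adipocyte differentiation was started. They were chosen by their labels, as the libraries of double knockout (DKO) MEFs at day 0 and at day 4, and make up 6 of the 48 libraries of the series and 6 of its 24 MEF libraries. All 6 carry Hmgn1-/- and Hmgn2-/- on the C57BL/6 strain. At day 0 (replicates 1 to 3) the cells had no differentiation agent. Per the methods, MEFs reached confluence some days before differentiation medium was added. At day 4 (replicates 1 to 3) they were in medium with insulin at 0.5 μg/ml, dexamethasone at 5 μM, IBMX at 0.5 mM, T3 at 1 nM and rosiglitazone at 1 μM. The comparison asks which genes changed in DKO cells in this first step, and 6 wild-type (WT) libraries of the same strain, days and media allow a test of whether the step differed by genotype. MEFs are a mixture of early-passage cells from embryos, and the labels do not say whether the 3 replicates came from separate embryos, so p-values measure the spread between these cultures, which may in part be technical.

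Adipocyte differentiation is driven by a short cascade of transcription factors, in which the early factors C/EBPβ and C/EBPδ give way to PPARγ and C/EBPα, which in turn switch on the genes of lipid storage. Each agent of the medium acts on a known route: dexamethasone on the glucocorticoid receptor, IBMX on cyclic AMP by blocking phosphodiesterases, rosiglitazone on PPARγ, T3 on thyroid hormone receptors and insulin on growth and lipid synthesis. As fibroblasts become adipocytes, they commonly lose contractile fibres and collagen-rich matrix, and cells stimulated at confluence may divide again before they differentiate.

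The 6 libraries held 20871043 to 33083194 counts. Levels are given as CPM, counts relative to library size, scaled by TMM over all 24 MEF libraries, in the order replicate 1, 2 and 3. Folds come from the edgeR fit of the 6 libraries, and log2 fold changes carry their standard error (SE). Hmgn2 was at 0 CPM in 5 of the 6 libraries and at 0.041 CPM in the other. Hmgn1 held 101, 69.7 and 106 CPM at day 0 and 94.4, 77.8 and 97 CPM at day 4. The methods describe deleted exons, and a count over the whole gene does not show from which exons these reads came. The days separated on the first principal component, which held 66.9% of the variance. Replicate 2 of day 0 stood apart from the other day 0 libraries on it, at -28.3 against -62.4 and -60.7. The mitochondrial share of counts was 1.53 to 2.86% at day 0 and 4.16 to 4.42% at day 4.

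The day 0 libraries also differed among themselves in genes that answer to glucocorticoids, although the labels give no agent at day 0. Fkbp5, a chaperone partner of the glucocorticoid receptor and one of its most responsive targets, stood at 13.4, 224 and 272 CPM at day 0 and at 324, 228 and 391 CPM at day 4. Zbtb16, a transcription factor induced by the same hormone, stood at 1.05, 33.8 and 43.4 CPM and then 51.7, 47 and 69.4 CPM. Replicate 1 was low in both genes, and replicates 2 and 3 lay near or within the range of day 4. Over the 53 measured genes of cell division, the median log2 level less the mean of the 12 libraries of WT and DKO cells was -0.16 in replicate 1 and -1.25 and -1.10 in replicates 2 and 3 of day 0. Gene groups with at least 3 members called in a direction, and whose count moved by over 1.5 times with replicate 1 as the only day 0 library, are therefore also given in that form. That setting was chosen once the data had been seen, in part because replicate 1 was low in glucocorticoid genes. Its spread comes from the 3 day 4 libraries alone, with the lone day 0 library assumed to vary like them, so its counts are descriptions.

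Of 15471 genes tested, 1501 were called higher at day 4 (9.7% of those tested) and 1809 lower (11.7%), at an edgeR adjusted p under 0.05 and a fold of at least 1.5. Counts of list members given below are read against these shares. The libraries of the days did not overlap for 46.6% of genes, and 41.6% had an unadjusted p under 0.05. The median log2 fold change of all genes tested was 0.02. The counts rested on each library: they were 594 higher and 749 lower without replicate 1 of day 4, 1063 and 1164 without its replicate 2, 990 and 1170 without its replicate 3, and 747 and 1136 without replicate 3 of day 0. They were 1320 and 1576 without replicate 1 of day 0 and 1892 and 2250 without its replicate 2. List counts that move with a library are read beside these totals. With replicate 1 as the only day 0 library, 1137 genes were called higher and 1853 lower.

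**Figure D1:**
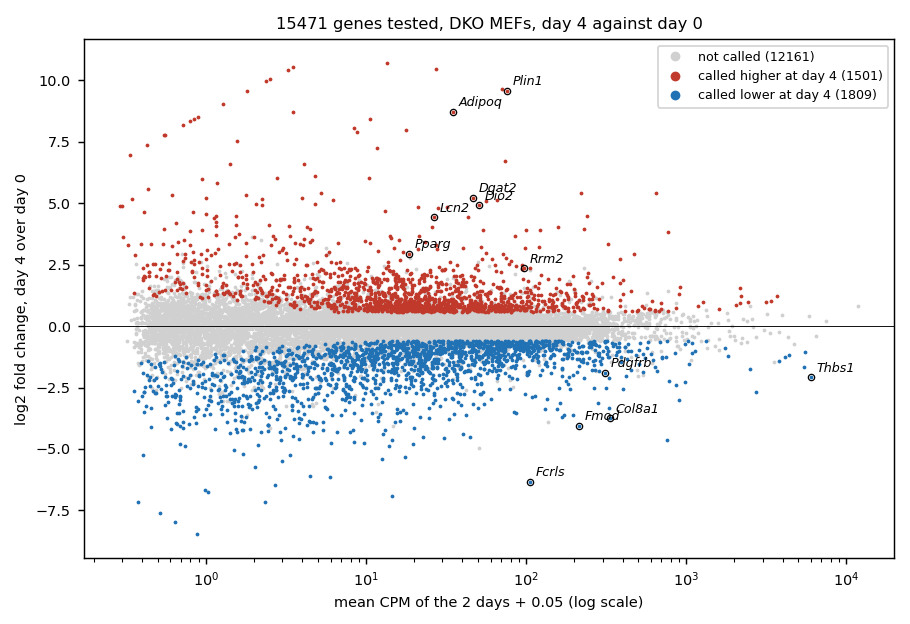
Each point is one gene: mean CPM of the day 0 and day 4 means plus 0.05 on a log axis (across) and log2 fold change of day 4 over day 0 (up). Red points are the 1501 genes called higher at day 4, blue the 1809 called lower, grey the rest, and circled genes are named in the text; the genes of lipid storage Plin1 and Adipoq lie at the top and Fcrls near the bottom.

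Among called genes with a mean of at least 5 CPM in the higher day, those with the largest rises were mostly genes of the fat cell. Plin1, the coat protein of the lipid droplet, was at 0.042, 0.44 and 0.091 CPM at day 0 and 110.4, 69.7 and 277 CPM at day 4. It rose 768-fold (log2 fold change 9.59 ± 0.89 SE, edgeR adjusted p = 0.00348). Adipoq, the adipocyte hormone adiponectin, was at 0.126, 0.102 and 0.244 CPM at day 0 and 39.3, 32.5 and 137 CPM at day 4, and rose 423-fold (log2 fold change 8.72 ± 0.86 SE, edgeR adjusted p = 0.00356). All day 0 libraries were near the limit of detection in both genes, and at day 4 replicate 3 was the highest. Cidec, which fuses lipid droplets, had at most 3 counts in each day 0 library and 37.8, 14.7 and 112 CPM at day 4, at least 517-fold higher. The same floor of 3 counts per library put Sptlc3, a subunit of the enzyme that starts sphingolipid synthesis, at least 254-fold higher, Mrap, an accessory protein of the ACTH receptor, at least 199-fold, Slc36a2, an amino acid transporter, at least 157-fold, Elovl3, a fatty acid elongase of brown fat, at least 64.6-fold, and Retnla, a secreted resistin-like protein, at least 60.3-fold. Car3, a carbonic anhydrase abundant in fat, rose 803-fold and Thrsp, a regulator of lipid synthesis, 249.6-fold. The fold of Car3 is imprecise. Its log2 fold change was 9.50 ± 1.97 SE without replicate 1 of day 0 and 8.005 ± 0.924 SE without replicate 3 of day 4.

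The genes with the smallest p among those that rose were less extreme but tighter. Dio2, which activates thyroid hormone and marks brown fat, was at 3.94, 3.32 and 2.65 CPM at day 0 and 86.3, 78.1 and 129.7 CPM at day 4, 30.2-fold higher (log2 fold change 4.92 ± 0.27 SE, edgeR adjusted p = 0.00302). Angpt1, a vascular growth factor, rose 4.93-fold, Pde7b, a cyclic AMP phosphodiesterase, 3.5-fold, Rnf144a, a ubiquitin ligase, 3.19-fold, and Baiap2, an adaptor of the actin skeleton, 2.68-fold.

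Pparg and Cebpa, the pair of regulators at the end of the cascade, were both called higher. Pparg (chromosome 6, 115360951 to 115490399, mm10) was at 3.56, 5.62 and 3.84 CPM at day 0 and 29.4, 29.5 and 39.9 CPM at day 4, and Cebpa (chromosome 7, 35119293 to 35121928) at 22.9, 26.4 and 21 CPM at day 0 and 119, 84 and 195 CPM at day 4. The days did not overlap in either gene. Pparg rose 7.68-fold (log2 fold change 2.94 ± 0.23 SE, edgeR adjusted p = 0.00302) and Cebpa 5.74-fold (log2 fold change 2.52 ± 0.31 SE, edgeR adjusted p = 0.00527). Their RefSeq promoters (GRCm38.p6, 250 bases before to 50 after the start) are shown because these genes head the programme. Pparg has 3 starts in the table, and the most downstream is printed. Capitals mark matches to the motifs searched on either strand. In Pparg they mark CCAAT, the box bound by NF-Y. They also mark the cell-cycle element TTTGAA in that gene. In Cebpa they mark a TATA box, spelled TATAAA.
Pparg, chr6:115421816-115422115, plus strand: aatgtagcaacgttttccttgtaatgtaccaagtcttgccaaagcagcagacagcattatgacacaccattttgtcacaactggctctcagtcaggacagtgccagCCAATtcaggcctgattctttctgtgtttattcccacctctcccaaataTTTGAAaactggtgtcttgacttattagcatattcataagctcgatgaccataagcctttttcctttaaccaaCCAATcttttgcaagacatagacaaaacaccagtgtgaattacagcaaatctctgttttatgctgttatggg
Cebpa, chr7:35119043-35119342, plus strand: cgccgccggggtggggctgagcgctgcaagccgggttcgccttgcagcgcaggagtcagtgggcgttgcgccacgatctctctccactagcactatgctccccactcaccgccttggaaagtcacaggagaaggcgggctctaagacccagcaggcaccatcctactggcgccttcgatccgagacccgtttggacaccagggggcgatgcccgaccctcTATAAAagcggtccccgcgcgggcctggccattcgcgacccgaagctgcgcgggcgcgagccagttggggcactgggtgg

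No match to the PPAR and RXR direct repeat, to the C/EBP palindrome TTGCGCAA to the AP-1 site TGANTCA or to the cyclic AMP element TGACGTCA was found in any promoter window printed here, which says only that these letters are not in them. TTTGAA was found in 20.2% and CCAAT in 41.1% of the 27025 genes of the promoter table, and TATAAA in 15.7%. The direct repeat was found in only 13 of these genes and TTGCGCAA in 56, while TGANTCA was in 8.97% and TGACGTCA in 2.03%.

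The early factors did not pass the test in the 6 libraries. Cebpb was at 4.78, 9.69 and 3.29 CPM at day 0 and 18.6, 10.4 and 8.46 CPM at day 4, with a log2 fold change of 1.10 and an edgeR adjusted p of 0.125. Cebpd was at 7.46, 19.1 and 17.5 CPM at day 0 and 28.8, 13.9 and 18.3 CPM at day 4, with a log2 fold change of 0.49 and an edgeR adjusted p of 0.407. The days overlapped in both genes. In Cebpd, replicate 1 of day 0 lay below every day 4 library, and replicates 2 and 3 lay within their range. That is the split given above for Fkbp5 and Zbtb16. Of 44 regulators of adipogenesis measured, 6 were called higher and 8 lower, against 9.7% of all genes called higher and 11.7% lower. Their median log2 fold change was 0.11. Besides Pparg and Cebpa, those higher were Mlxipl, the carbohydrate-responsive activator of lipid synthesis (153-fold), Egr2, an early activator (2.61-fold), Srebf1, the master gene of fatty acid synthesis (2.27-fold), and Nr2f2, a nuclear receptor (2.21-fold). Klf2, which restrains Pparg, was at 10, 3.45 and 8.04 CPM at day 0 and 0.933, 1.16 and 1.72 CPM at day 4 and fell 5.57-fold (edgeR adjusted p = 0.0127). Klf4, Klf3 and Zeb1 fell 1.91-fold, 1.51-fold and 1.92-fold, and Nr3c1, the glucocorticoid receptor itself, fell 1.63-fold. The count of those lower became 4 without replicate 3 of day 0 or replicate 2 of day 4, 1 without replicate 1 of day 4 and 5 without replicate 3 of day 4.

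**Figure D2:**
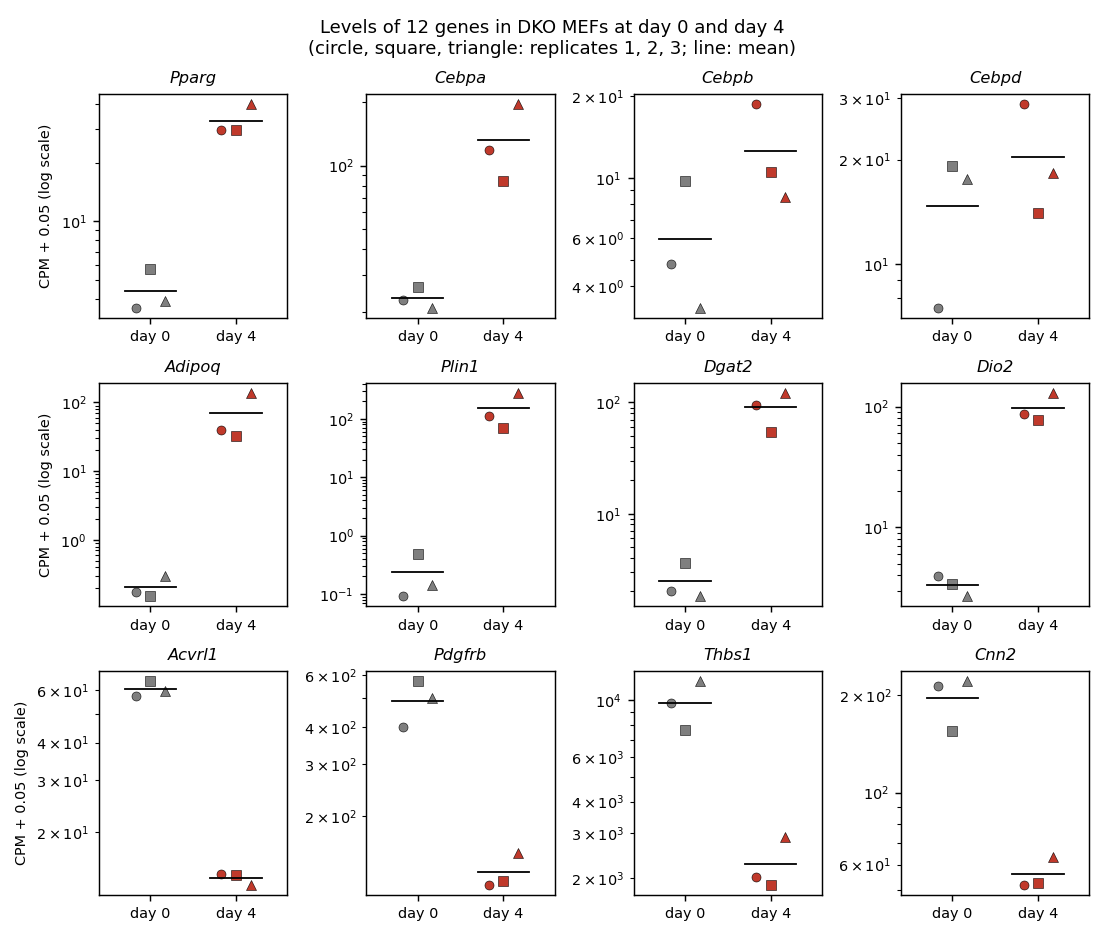
CPM plus 0.05 on a log axis (up) for 12 genes in DKO MEFs at day 0 (grey) and day 4 (red); circles, squares and triangles are replicates 1, 2 and 3, and lines are means. Pparg, Cebpa, Adipoq, Plin1, Dgat2 and Dio2 lie higher at day 4 in all libraries, Cebpb and Cebpd overlap between days, and Acvrl1, Pdgfrb, Thbs1 and Cnn2 lie lower.

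Most markers of the lipid-storing cell rose. Of 35 general adipocyte markers measured, 30 were called higher and none lower, with a median log2 fold change of 3.84, against 9.7% of all genes called higher and a median of 0.02. Dgat2, the enzyme of the last step of triglyceride synthesis, was at 1.97, 3.59 and 1.77 CPM at day 0 and 95.7, 53.8 and 122 CPM at day 4 and rose 37.5-fold (log2 fold change 5.23 ± 0.43 SE, edgeR adjusted p = 0.0032). Its promoter is not in the table used here. Bscl2, seipin, which forms lipid droplets, was at 31.8, 39.5 and 26.8 CPM at day 0 and 100.1, 86.4 and 107 CPM at day 4 and rose 3.04-fold. Fabp4, the fatty acid carrier of adipocytes, went from 8.55, 51.8 and 29.6 to 1019, 657 and 2126 CPM, 42.9-fold higher. With replicate 1 as the only day 0 library, the median log2 fold change of the group was 3.57, and 7 members were called. The 7 tested markers of the mature adipocyte all rose (2 with replicate 1 as the only day 0 library), while Lep, leptin, held at most 1.02 CPM in any of the 6 libraries and was not tested.

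Genes of lipid handling rose in part. Of 25 genes of the lipid droplet and lipolysis, 14 rose and 1 fell, with a median log2 fold change of 2.01. Pde3b, the phosphodiesterase through which insulin blocks lipolysis, was at 21, 20.4 and 18.2 CPM at day 0 and 148, 137 and 244 CPM at day 4, 8.99-fold higher (edgeR adjusted p = 0.00302). Abhd5, the activator of triglyceride lipase, was at 62.6, 81.5 and 62 CPM at day 0 and 232, 224 and 303 CPM at day 4, 3.74-fold higher. Plin3, the droplet coat protein found in most cells, moved the other way, from 91.5, 90.1 and 85.3 to 59.9, 48.6 and 51.6 CPM, 1.64-fold lower. Of 30 genes of fatty acid and triglyceride synthesis, 14 rose and 1 fell (median 1.06). Acsl1, which activates fatty acids, rose 22.4-fold, Gpd1, which makes glycerol phosphate, 106-fold, and Pnpla3, a lipid droplet acyltransferase and lipase, 17.5-fold. Mogat2 fell, from 0.712, 0.88 and 1.16 to 0.085, 0.15 and 0.041 CPM. The 14 of the synthesis group became 8 without replicate 3 of day 0 and 7 without replicate 1 of day 4. With replicate 1 as the only day 0 library 3 were called, and the median was 0.93.

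Among secreted factors, 15 of 31 rose and 4 fell (median 2.01). Retn, resistin, was at 0, 0.068 and 0.122 CPM at day 0 and 13.3, 4.64 and 34 CPM at day 4, 239-fold higher. Apln, apelin, was at 2.6, 2.74 and 1.34 CPM at day 0 and 41.8, 100.4 and 43.7 CPM at day 4, 28.4-fold higher, and Vegfa was 1.95-fold higher. Those that fell were Vegfb (2.51-fold), Metrnl (2.1-fold), Ccn2, a matrix growth factor (7.85-fold), and Bmp4 (3.8-fold). The 15 became 8 without replicate 1 of day 4 and 9 without replicate 3 of day 4, and the 4 became 1 without replicate 3 of day 0 or replicate 2 of day 4 and 2 without replicate 1 of day 4. Against day 0 replicate 1 alone these 4 became 2.

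**Figure D3:**
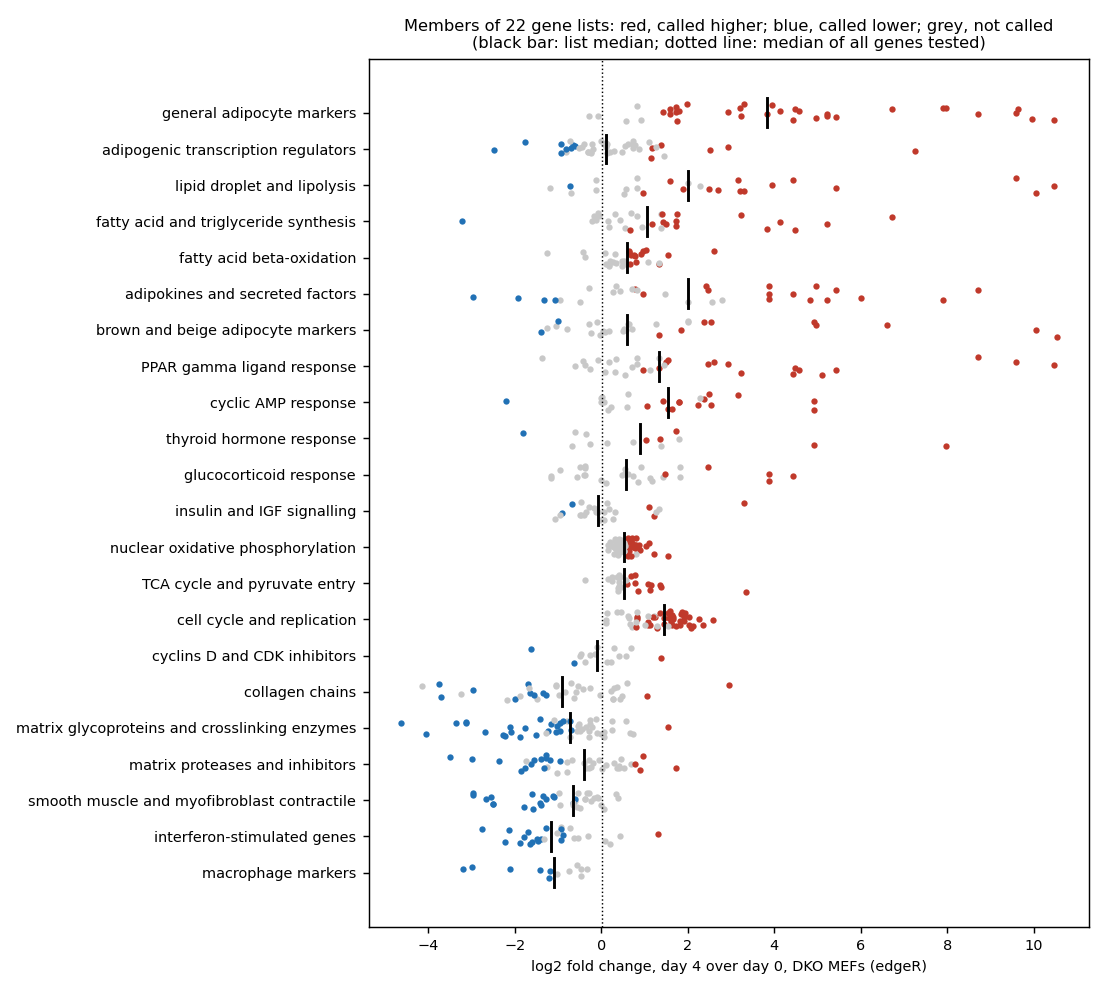
Log2 fold change of day 4 over day 0 (across) for the tested members of 22 gene lists (rows) in DKO MEFs; red members were called higher, blue lower and grey neither, black bars are list medians and the dotted line the median of all genes tested, 0.02. The adipocyte list has its median at 3.84, and the collagen, matrix, contractile, interferon and macrophage lists have theirs below 0.

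Lists of genes that answer to the agents of the medium are read against 9.7% of all genes called higher and 11.7% lower. They share members with each other and with the lists above, so their counts are not independent results for each agent. Dio2 is in the cyclic AMP, thyroid hormone and brown fat lists, and Plin1 and Adipoq are in the PPARγ ligand and general adipocyte lists. Of 23 cyclic AMP responsive genes, 13 rose and 1 fell (median 1.56). Nr4a1, an early nuclear receptor of this route, was at 12.9, 8.03 and 12.6 CPM at day 0 and 68.3, 58.4 and 60.1 CPM at day 4, 5.65-fold higher (log2 fold change 2.50 ± 0.21 SE, edgeR adjusted p = 0.0032). Rgs4, a brake on G-protein signals, was at 9.51, 31.1 and 15.6 CPM at day 0 and 4.07, 4.38 and 3.52 CPM at day 4, 4.62-fold lower. Of 33 genes answering to PPARγ ligands, 16 rose and none fell (median 1.33), among them Plin1, Adipoq, Acsl1 and Cidec. The 16 became 10 without replicate 1 of day 4 and 8 with replicate 1 as the only day 0 library. Of 14 thyroid hormone responsive genes, 5 rose and 1 fell: Dio2 and Thrsp as above, Idh3a 2.57-fold, Bcl3 2.04-fold and Fasn, fatty acid synthase, 3.33-fold higher, and Rcan2 3.49-fold lower. These 5 became 3 without replicate 3 of day 0 and 2 without replicate 1 of day 4, and 2 against day 0 replicate 1 alone. Of 25 genes of insulin and IGF signalling, 3 rose and 2 fell (median -0.07), shares near those of all genes tested. The 3 became 1 without replicate 3 of day 0. Slc2a4, the insulin-responsive glucose transporter, was at 0.461, 0.44 and 0.488 CPM at day 0 and 2.71, 2.06 and 8.91 CPM at day 4, 9.86-fold higher. Irs2 rose 2.14-fold and Pik3r3 2.32-fold, while Irs1 fell 1.87-fold and Akt1 1.59-fold.

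Of 28 glucocorticoid-responsive genes tested, 5 were called higher and none lower (median 0.58). With replicate 1 as the only day 0 library, 19 were called higher and the median was 2.05, which restates the low levels for which that library was singled out. Leaving out single libraries, the 5 became 8 without replicate 2 of day 0, 3 without replicate 3 of day 0 or replicate 2 of day 4, 1 without replicate 1 of day 4 and 2 without replicate 3 of day 4. Saa3, an acute-phase protein, passed in the full set, at 2.14, 11.1 and 7.22 CPM at day 0 and 95, 54.4 and 152 CPM at day 4, 14.8-fold higher (log2 fold change 3.89 ± 0.65 SE, edgeR adjusted p = 0.00959). So did Lcn2, lipocalin 2, at 0.084, 5.25 and 1.71 CPM at day 0 and 51.9, 35.5 and 65.6 CPM at day 4, 21.7-fold higher, Ddit4, an inhibitor of mTOR, 2.77-fold, Angptl4, an inhibitor of lipoprotein lipase, 5.51-fold, and Orm1, 14.8-fold.

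Other members, named after their values were seen, were already high in 2 of the 3 day 0 libraries. Fkbp5, with the levels given above, had a log2 fold change of 0.91 and an edgeR adjusted p of 0.475 in the 6 libraries, and a log2 fold change of 4.57 against replicate 1 alone. Pdk4, which closes the entry of pyruvate into mitochondria, was at 4.23, 96.9 and 90.1 CPM at day 0 and 50.5, 27.8 and 67.3 CPM at day 4. Hif3a was at 2.72, 61.9 and 105 CPM at day 0 and 22.7, 19.5 and 33.3 CPM at day 4. In both, replicates 2 and 3 of day 0 exceeded every day 4 library, and replicate 1 lay below them all. Tsc22d3, a mediator of glucocorticoid action, was at 51.3, 217 and 511 CPM at day 0 and 224, 115 and 188 CPM at day 4. In WT cells at day 0, Fkbp5 was at 53.5, 15.3 and 58.3 CPM, below all day 4 libraries. Klf9 and Klf15, regulators of adipogenesis induced by the hormone, followed the same split, at 63.6, 241 and 211 and 4.11, 24 and 23.2 CPM at day 0. Why replicates 2 and 3 of day 0 differ from replicate 1 was not tested.

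**Figure D4:**
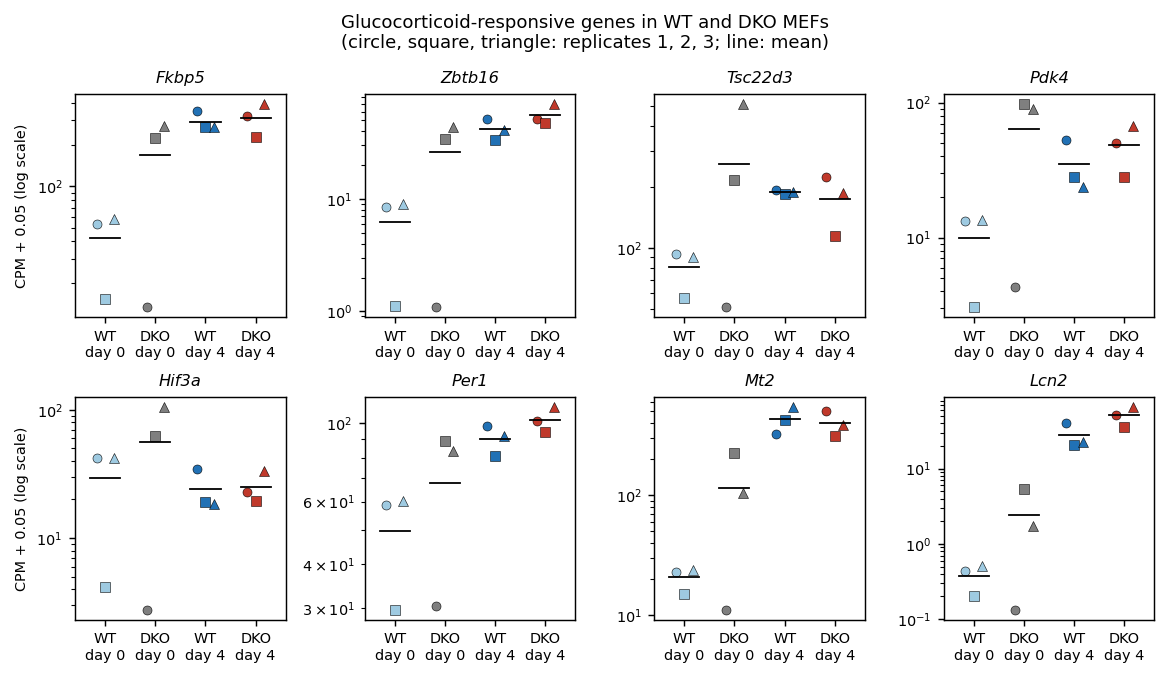
CPM plus 0.05 on a log axis (up) for 8 glucocorticoid-responsive genes in WT and DKO MEFs at day 0 and day 4; circles, squares and triangles are replicates 1, 2 and 3, and lines are means. In DKO cells at day 0, replicate 1 lies far below replicates 2 and 3 in each gene, and Fkbp5 and Zbtb16 in replicates 2 and 3 are near their day 4 levels.

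The Saa3 promoter is shown as that of the glucocorticoid-list gene with the smallest p. It held no match to the receptor's palindrome or to its shorter site AGAACA. Of the 27025 genes of the promoter table, 3 held the exact palindrome and 21.3% held AGAACA, so nearly all genes lack the palindrome.
Saa3, chr7:46715627-46715926, minus strand: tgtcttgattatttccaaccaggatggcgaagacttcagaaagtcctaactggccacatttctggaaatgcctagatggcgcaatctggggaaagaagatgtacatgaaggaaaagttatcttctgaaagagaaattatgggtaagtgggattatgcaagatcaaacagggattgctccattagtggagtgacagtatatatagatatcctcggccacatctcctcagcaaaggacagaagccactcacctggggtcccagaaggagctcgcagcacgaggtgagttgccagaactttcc

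Many mitochondrial genes rose by small amounts. Of 62 nuclear genes of oxidative phosphorylation, 26 were called higher and none lower (median 0.53). Cycs, cytochrome c, was at 49.5, 55.8 and 52.4 CPM at day 0 and 141, 127 and 183 CPM at day 4, 2.9-fold higher (log2 fold change 1.53 ± 0.15 SE, edgeR adjusted p = 0.00356). Ndufv2, of complex I, rose 1.86-fold, Uqcr11, of complex III, 2.15-fold, and Atp5g3, of the ATP synthase, 2.05-fold. Of 13 mitochondrially encoded genes, 11 rose (median 0.98), mt-Atp6 by 3.02-fold. Of 24 genes of the citric acid cycle and pyruvate entry, 11 rose (median 0.52), Cs, citrate synthase, by 1.8-fold. Pcx, pyruvate carboxylase, was at 25.1, 119.7 and 31.9 CPM at day 0 and 539.7, 464 and 757 CPM at day 4, 10.1-fold higher. Of 30 genes of fatty acid oxidation, 13 rose (median 0.60), among them Acad11 (1.94-fold), Echs1 (1.68-fold) and Eci2 (1.56-fold). The counts moved with single libraries. The 26 became 9 without replicate 3 of day 0, 6 without replicate 1 of day 4 and 12 without replicate 3 of day 4. The 11 mitochondrially encoded genes became 3 without replicate 3 of day 0 or replicate 1 of day 4 and 5 without replicate 3 of day 4. Those of the citric acid cycle became 4 without replicate 3 of day 0 and 2 without replicate 1 of day 4, and the 13 of fatty acid oxidation became 8 without replicate 1 of day 0 or replicate 3 of day 4 and 5 without replicate 3 of day 0 or replicate 1 of day 4. Against day 0 replicate 1 alone, 10 of the oxidative phosphorylation genes, 10 of the mitochondrially encoded, 3 of the citric acid cycle and 4 of fatty acid oxidation were called.

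Brown and beige markers rose in part. Of 30 tested, 9 rose and 2 fell (median 0.60), against 9.7% of all genes called higher and 11.7% lower. The 9 became 4 without replicate 1 of day 4. With replicate 1 as the only day 0 library the median was 0.45. Besides Dio2 and Elovl3, Lhx8 was at 0.419, 0.508 and 0.731 CPM at day 0 and 3.9, 2.69 and 3.11 CPM at day 4, 5.84-fold higher, Cited1 was at 0.293, 0.068 and 0.03 CPM at day 0 and 5.17, 1.46 and 5.03 CPM at day 4, 31.3-fold higher, and Kcnk3 was at least 25.4-fold higher. Acot11 fell 2.63-fold and Ebf3 2.01-fold. Ppargc1a, the coactivator of mitochondrial growth, was at 1.34, 4.27 and 1.49 CPM at day 0 and 16.2, 6.32 and 13.7 CPM at day 4, 5.16-fold higher (edgeR adjusted p = 0.0255), and Ppargc1b was 3.6-fold higher. Ucp1, the uncoupling protein that defines brown fat, held at most 0.531 CPM in any of the 6 libraries and Cidea at most 0.409, and neither was tested. Adrb3, Ppara and Cox7a1 did not pass, with log2 fold changes of 2.01, 1.26 and 0.53.

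Many genes of cell division rose, and how many were called moved with single libraries of either day. Of 53 genes of the cell cycle and replication, 36 were called higher and none lower, with a median log2 fold change of 1.44. Rrm2, which supplies deoxynucleotides for replication, was at 29.2, 39.5 and 27 CPM at day 0 and 155, 213 and 117 CPM at day 4, 5.15-fold higher (log2 fold change 2.36 ± 0.26 SE, edgeR adjusted p = 0.00427). The days did not overlap. Ccne1, cyclin E1, rose 2.11-fold and Cdk1, the mitotic kinase, 2.44-fold. Mki67, a marker of dividing cells, was at 135, 34 and 73.1 CPM at day 0 and 138, 175 and 113 CPM at day 4 and was not called. In that gene replicate 1 of day 0 lay within the range of day 4. With replicate 1 as the only day 0 library, 13 members were called and the median was 0.85. Without it, 48 were called and the median was 1.80, while 1320 of 15973 genes tested were called higher. The 36 became 13 without replicate 3 of day 0, 12 without replicate 1 of day 4 and 15 without replicate 2 of day 4. Of 15 genes in the list of cyclins D and inhibitors of cyclin-dependent kinases, 1 rose and 2 fell, against 9.7% of all genes called higher and 11.7% lower. Cdkn2c rose 2.59-fold. Ccnd1, cyclin D1, fell from 306, 219.9 and 445 to 82, 141 and 90.3 CPM. Cdk6, itself a cyclin-dependent kinase and not an inhibitor, fell 1.54-fold.

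Promoters were found for 43 of the 53 cell cycle genes. CCAAT was in 74.4% of them (41.1% of all genes of the table), TTTGAA in 44.2% (20.2%) and either of the E2F sites TTTGGCGC and TTTCCCGC in 20.9% (1.8%). Of the 10992 tested genes with a promoter in the table, 71% of those tested, 42.9% held CCAAT, 14.4% TTTGAA and 3.32% an E2F site. A high share of CCAAT was not particular to this list. It was 85% in the cholesterol list and 73.9% in the unfolded protein list, though 13.6% in that of secreted factors. These shares describe the lists and were not tested. The Rrm2 promoter, shown because its gene had the smallest p of the list, held a CCAAT from 50 to 46 bases before the start.
Rrm2, chr12:24708004-24708303, plus strand: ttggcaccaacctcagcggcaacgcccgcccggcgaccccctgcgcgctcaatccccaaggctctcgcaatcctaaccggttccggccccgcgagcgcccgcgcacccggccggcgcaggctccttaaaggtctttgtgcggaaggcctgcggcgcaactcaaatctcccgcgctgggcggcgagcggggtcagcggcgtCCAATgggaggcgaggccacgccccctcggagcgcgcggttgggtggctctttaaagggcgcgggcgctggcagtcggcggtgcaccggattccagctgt

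Many contractile genes fell. Of 37 genes of the smooth muscle and myofibroblast apparatus, 17 were called lower and none higher (median -0.65), against 11.7% of all genes called lower. Cnn2, a calponin that binds actin, was at 213, 155 and 219.6 CPM at day 0 and 52, 52.6 and 63.1 CPM at day 4, 3.46-fold lower (log2 fold change -1.79 ± 0.17 SE, edgeR adjusted p = 0.00348). Myl9, a myosin light chain, was at 127, 88 and 106 CPM at day 0 and 14.5, 8.08 and 17.9 CPM at day 4, 7.84-fold lower. Acta2, smooth muscle actin and the defining gene of the list, was at 532, 376 and 699 CPM at day 0 and 79, 72.6 and 128 CPM at day 4, 5.68-fold lower. Tpm2 fell 2.54-fold and Itga8 5.84-fold. The 17 became 8 without replicate 1 of day 4, and 13 with replicate 1 as the only day 0 library. Tnnt2, a cardiac troponin, had one of the 10 largest falls of genes with a mean of at least 5 CPM in the higher day. It fell 69.8-fold, from 3.35, 6.81 and 24.8 to 0, 0.037 and 0.45 CPM.

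The Cnn2 promoter is shown as that of the contractile gene with the smallest p. It holds a CArG box, the site of serum response factor, from 56 to 47 bases before the start. Promoters were found for 31 of the 37 genes, and 19.4% of them held a CArG box, against 1.81% of all genes of the table and 1.6% of the tested genes with a promoter, again with no test. Capitals also mark TTTCCCGC and CCAAT.
Cnn2, chr10:79988350-79988649, plus strand: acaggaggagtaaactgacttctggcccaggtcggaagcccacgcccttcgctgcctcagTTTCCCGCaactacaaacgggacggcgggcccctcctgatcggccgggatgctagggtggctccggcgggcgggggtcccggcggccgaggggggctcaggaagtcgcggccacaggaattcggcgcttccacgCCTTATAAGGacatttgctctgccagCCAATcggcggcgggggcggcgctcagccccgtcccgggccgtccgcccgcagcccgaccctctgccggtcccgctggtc

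Matrix genes fell in part. Of 49 matrix glycoproteins and crosslinking enzymes, 23 were called lower and 1 higher (median -0.72). Thbs1, thrombospondin 1, was at 9788, 7651 and 11846 CPM at day 0 and 2021, 1889 and 2904 CPM at day 4, 4.25-fold lower (log2 fold change -2.09 ± 0.27 SE, edgeR adjusted p = 0.00543). Fmod, fibromodulin, which shapes collagen fibrils, was at 415, 323 and 475 CPM at day 0 and 24.9, 8.3 and 38.9 CPM at day 4, 16.6-fold lower. Fbln5 fell 3.65-fold and Fbn2 4.68-fold. Vcan, versican, was the member that rose, from 514, 1415 and 1445 to 2370.2, 4679.7 and 2637 CPM (2.91-fold). The 23 became 10 without replicate 3 of day 0, 6 without replicate 1 of day 4 and 12 without replicate 2 of day 4, and 13 against day 0 replicate 1 alone.

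Of 36 collagen chains, 9 fell and 2 rose (median -0.90). Col4a5, of basement membranes, was at 219, 263 and 286 CPM at day 0 and 71.6, 80.1 and 81.3 CPM at day 4, 3.25-fold lower (log2 fold change -1.70 ± 0.13 SE, edgeR adjusted p = 0.00302). Col8a1 was at 641, 274 and 941 CPM at day 0 and 38.1, 15.6 and 82.4 CPM at day 4, 13.5-fold lower, and Col11a1 and Col16a1 fell 2.92-fold and 2.53-fold. Col1a2, of type I collagen, was at 13440.4, 4898 and 6325 CPM at day 0 and 2159, 1800.4 and 3833 CPM at day 4, 3.13-fold lower (edgeR adjusted p = 0.0443). Its partner Col1a1 was at 9481, 2590.1 and 3662 CPM at day 0 and 1529, 1231 and 2848 CPM at day 4 and was not called; replicate 3 of day 4 exceeded replicate 2 of day 0. Col3a1 was not called either, at 12430.2, 3621 and 6157 CPM at day 0 and 3891, 6334 and 6297 CPM at day 4. In all 3 of these fibrillar chains replicate 1 of day 0 was the highest library. With it as the only day 0 library 16 chains were called lower and the median was -1.27. The 9 became 16 without replicate 2 of day 0, 5 without replicate 3 of day 0, 1 without replicate 1 of day 4 and 4 without replicate 2 or 3 of day 4. Col15a1 and Col11a2 rose 7.7-fold and 2.1-fold. The Col4a5 promoter is shown as that of the collagen with the smallest p, with its CCAAT in capitals.
Col4a5, chrX:141475169-141475468, plus strand: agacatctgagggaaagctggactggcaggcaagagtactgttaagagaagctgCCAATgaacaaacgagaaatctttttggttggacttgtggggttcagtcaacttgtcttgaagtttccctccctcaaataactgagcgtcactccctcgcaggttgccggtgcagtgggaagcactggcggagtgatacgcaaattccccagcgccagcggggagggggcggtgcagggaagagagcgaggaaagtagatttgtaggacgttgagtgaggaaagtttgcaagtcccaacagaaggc

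Among 39 matrix proteases and inhibitors, 13 fell and 4 rose, against 11.7% of all genes called lower and 9.7% higher. Plau, urokinase, was at 59.4, 74.2 and 59.7 CPM at day 0 and 14, 10.2 and 12.5 CPM at day 4, 5.18-fold lower (log2 fold change -2.37 ± 0.16 SE, edgeR adjusted p = 0.00302). Timp2 fell 2.95-fold, Adamts5 3.59-fold and Mmp14 2.62-fold, while Timp1 rose 1.95-fold, Adam12 3.3-fold, Adamts15 1.86-fold and Adamts9 1.71-fold. The 13 became 6 without replicate 1 of day 4 and 8 without replicate 3 of day 4, and the 4 became 2 without replicate 3 of day 0 or replicate 1 of day 4 and 1 without replicate 3 of day 4. Mmp2 and Mmp3, which the study names, were not called, with log2 fold changes of -0.80 and -1.25.

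Fibroblast markers fell in part. Of 20, 9 were called lower and none higher (median -1.45), and the 9 became 2 without replicate 1 of day 4 and 5 without replicate 2 of day 4. Pdgfrb, a growth factor receptor of mesenchymal cells, was at 401, 571 and 501 CPM at day 0 and 117, 121 and 149.9 CPM at day 4, 3.75-fold lower (log2 fold change -1.91 ± 0.17 SE, edgeR adjusted p = 0.00341). Ly6a, the progenitor antigen Sca-1, fell 4.28-fold, S100a4 3.96-fold and Dcn, decorin, 4.85-fold. Pdgfra, a receptor of adipocyte progenitors, was at 743, 852 and 1025 CPM at day 0 and 618, 708 and 805 CPM at day 4 and Prrx1 at 574, 855 and 765 CPM at day 0 and 495, 539 and 597 CPM at day 4, and neither was called. In bulk RNA, fewer cells of a type and less RNA per cell cannot be told apart.

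The genes with the smallest p among those that fell came from several routes. Acvrl1, a receptor of the TGF-beta family, was at 57.2, 64.1 and 59.5 CPM at day 0 and 14.4, 14.4 and 13.3 CPM at day 4, 4.24-fold lower (log2 fold change -2.08 ± 0.10 SE, edgeR adjusted p = 0.00302). Il17rd, a brake on FGF signals, fell 3.6-fold, Itga4, an integrin, 8.95-fold, and Emp3, a membrane protein, 2.61-fold. Of 53 genes of Wnt, BMP and TGF-beta signals, 8 rose and 9 fell (median -0.31), against 9.7% of all genes called higher and 11.7% lower. Gdf10, a BMP-like ligand, was at 13.4, 15.2 and 9.14 CPM at day 0 and 106, 234 and 135 CPM at day 4, 12.8-fold higher, and Dkk2, a Wnt antagonist, at 250.3, 133 and 98 CPM at day 0 and 13.5, 10.6 and 16.7 CPM at day 4, 11.6-fold lower. Id3, Bambi and Fzd1 rose 2.01-fold, 3.06-fold and 2.15-fold. Dkk3, Chrd and Fzd2 fell 3.17-fold, 2.51-fold and 2.74-fold. The 8 became 5 without replicate 1 of day 0 or replicate 3 of day 4 and 4 without replicate 1 or 2 of day 4, and the 9 became 3 without replicate 1 of day 4.

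AP-1 subunits, DNA-binding proteins of the leucine zipper family, are a list of 13 measured genes. Of these 1 rose and 4 fell, against 9.7% of all genes called higher and 11.7% lower. Fosl1 was at 0.67, 3.76 and 1.4 CPM at day 0 and 11.1, 17.2 and 6.95 CPM at day 4, 6.11-fold higher (edgeR adjusted p = 0.0287). Fosl2, whose protein is FRA2, was at 225, 234 and 261 CPM at day 0 and 282, 326 and 259 CPM at day 4 and Jun at 59.1, 61.1 and 37.8 CPM at day 0 and 65.1, 55.3 and 46.2 CPM at day 4. Neither was called, with log2 fold changes of 0.29 and 0.10 and edgeR adjusted p of 0.147 and 0.755. Fos and Junb were not called either. Jdp2, Maf and Batf fell 1.8-fold, 1.79-fold and 2.61-fold, and the 4 became 2 without replicate 2 of day 0 or replicate 1 of day 4 and 1 without replicate 3 of day 0 or replicate 2 or 3 of day 4. Against day 0 replicate 1 alone they became 2. Of 18 genes that the study names, some of them on these samples and so no independent evidence of direction, 5 rose and 2 fell, and the 5 became 2 without replicate 3 of day 0 and 1 without replicate 1 of day 4 and 3 against day 0 replicate 1 alone. Those not yet given include Anxa3, which fell 3.12-fold.

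Among high mobility group genes, Hmgn1 included, 3 of 8 tested rose. Hmgb2, a DNA-bending protein of dividing cells, was at 31.2, 20.1 and 20.6 CPM at day 0 and 75.6, 86.7 and 56.6 CPM at day 4, 3.09-fold higher (edgeR adjusted p = 0.00714). Hmgb3 rose 3.84-fold and Hmgn5, a relative of the deleted genes, 2.04-fold. Hmgn3 was at 26.1, 79.6 and 32.7 CPM at day 0 and 51.5, 69.1 and 37.1 CPM at day 4, Hmga2 at 59.2, 228 and 99.6 CPM at day 0 and 145, 229 and 93 CPM at day 4, and neither was called. In Hmga2, replicate 2 of both days was the highest library. Hmgn1, Hmga1 and Hmgb1 were not called.

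Interferon genes fell in part. Of 26 interferon-stimulated genes, 15 were called lower and 1 higher (median -1.15). Oas2, an antiviral enzyme, was at 14.4, 8.43 and 17.3 CPM at day 0 and 1.95, 2.02 and 1.88 CPM at day 4, 6.76-fold lower (log2 fold change -2.76 ± 0.31 SE, edgeR adjusted p = 0.00419). Oas1a fell 2.74-fold, Ddx58, the RNA sensor RIG-I, 2.42-fold, and Irf9 1.89-fold. Oasl1 rose, from 0.796, 0.813 and 0.762 to 2.46, 1.31 and 2.04 CPM. Of 22 cytokines and chemokines, 5 rose and 2 fell, against 9.7% of all genes called higher and 11.7% lower. The 4 with the smallest p, Ccl11, Cxcl1, Cxcl14 and Il6, rose 7.91-fold, 3.2-fold, 2.97-fold and 4.61-fold, and Cxcl16 and Tnf fell 4.25-fold and 3.2-fold. The 5 became 1 without replicate 3 of day 0 and 2 without replicate 1, 2 or 3 of day 4, and 3 against day 0 replicate 1 alone.

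Macrophage RNA was present in these fibroblast cultures on both days. Of 12 macrophage markers, 6 fell and none rose (median -1.10), and the 6 became 3 without replicate 3 of day 0 or replicate 1 or 2 of day 4. Ptprc, CD45, was at 97.7, 39.1 and 85.5 CPM at day 0 and 18.1, 17.1 and 15.6 CPM at day 4, 4.32-fold lower (log2 fold change -2.11 ± 0.34 SE, edgeR adjusted p = 0.00879). Csf1r, the receptor of their growth factor, fell 2.65-fold, Adgre1, F4/80, 2.33-fold, and Fcgr1 7.88-fold. Lyz2, lysozyme, was at 4881, 5674 and 4602 CPM at day 0 and 4419.6, 3545 and 2879 CPM at day 4, and was not called. The summed level of the 12 markers was 6776 to 7778 CPM at day 0 and 4413 to 5680 CPM at day 4. Genes known from macrophages and microglia were also among the 10 largest falls of genes with a mean of at least 5 CPM in the higher day. Fcrls went from 355, 28.8 and 240.0 to 2.42, 0.486 and 4.78 CPM. Cx3cr1 went from 58.5, 1.79 and 25.8 to 0.255, 0.112 and 0.327 CPM. Clec12a, Il21r and Rasgrp3 fell 29.3-fold, 45.4-fold and 40.2-fold. In Fcrls, Cx3cr1 and Il21r, replicate 2 was the lowest day 0 library. The other large falls were Cilp (42.6-fold), Ptprq (69.2-fold), Ptprb (37.9-fold) and Lrrn4 (27.5-fold). The part of macrophage RNA in the interferon and cytokine results was not tested.

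The summed levels of other cell type markers differed by type. None of the 8 erythroid markers passed the filter, and the summed level was 1.7 to 3.4 CPM for skeletal muscle, 1.3 to 12.2 CPM for epithelium and 16.4 to 42.2 CPM for endothelium. It was 40.8 to 75.1 CPM for cartilage and bone, of whose 10 markers 6 held at most 1 CPM in every library, and 179.9 to 307.6 CPM for neural and glial cells, of whose 10 markers 3 did. In the endothelial list, Vwf and Kdr fell 19.2-fold and 2.3-fold and Egfl7 rose 4.67-fold. Krt8, Krt14 and Krt18 fell, and the count of 3 became 0 without replicate 3 of day 0 or replicate 1 of day 4 and 1 without replicate 2 of day 4. Against day 0 replicate 1 alone none was called. Alpl, a bone marker, rose 10.6-fold, and Ncam1, a neural one, fell 1.76-fold. Of 29 genes of cholesterol synthesis and uptake 6 rose and 1 fell, with Tm7sf2 2.49-fold higher and Abca1 and Dhcr7 1.77-fold and 1.82-fold higher, and the 6 became 2 without replicate 1 of day 0 or replicate 1 or 3 of day 4 and 3 without replicate 3 of day 0 and 3 against day 0 replicate 1 alone. Of 25 genes of the unfolded protein response, Ern1 rose 1.73-fold and Herpud1 fell 1.97-fold, against 9.7% of all genes called higher and 11.7% lower.

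WT cells went through the same days in the same media, with 33.4% of 15690 genes called in that step on its own. The difference between the genotypes, tested as the interaction of genotype and day over 12 libraries, called 0 of 16436 genes by edgeR. At an unadjusted p under 0.05 there were 1185 (7.21%), and DESeq2 called 7. Without replicate 1 of DKO day 0 edgeR called 157 genes with a more positive and 66 with a more negative change in DKO cells, and without replicates 2 and 3 of DKO day 0 again none. Pparg had a log2 fold change of 2.94 in DKO and 2.62 in WT cells, a difference of 0.32 ± 0.39 (SE). Cebpa had 2.52 and 1.97, a difference of 0.56 ± 0.52. The smallest interaction p values, none of them called, belonged to 4930447C04Rik, Ctsk, a collagen-cutting protease, and Fam69c. Ctsk had a log2 fold change of -1.97 in DKO and -0.62 in WT cells (unadjusted edgeR interaction p = 0.000236, n = 12 libraries), with DKO levels of 134, 206 and 155 CPM at day 0 and 48.9, 32.3 and 43.5 CPM at day 4. The other 2 were below 1.3 CPM in every DKO library.

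By list, the median log2 fold change was 3.84 in DKO and 2.82 in WT cells for the general adipocyte markers. Of these, 1 of 35 members had an unadjusted interaction p under 0.05. Their median levels at day 4 overlapped, at 2.11, -0.03 and 0.12 in WT and 1.48, 0.59 and 2.67 in DKO replicates 1 to 3. Without replicate 3 of DKO day 4 the DKO median log2 fold change was 2.67. For the cell cycle list the median log2 fold change was 1.44 in DKO and 0.42 in WT cells, and 32 of 53 members had an unadjusted interaction p under 0.05. There the median level of DKO replicates 2 and 3 at day 0 lay below every WT library, and replicate 1 lay beside them (-0.16 against -0.15 to -0.01). For the glucocorticoid list it was 0.58 and 1.56, with 5 of 28 members. For the interferon list it was -1.15 and -1.71, with 11 of 26 members, and the DKO day 0 libraries, at 0.11 to 0.44, lay between WT day 0 (0.95 to 1.26) and both day 4 groups. For contractile genes it was -0.65 and -0.82, with 2 of 37.

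**Figure D5:**
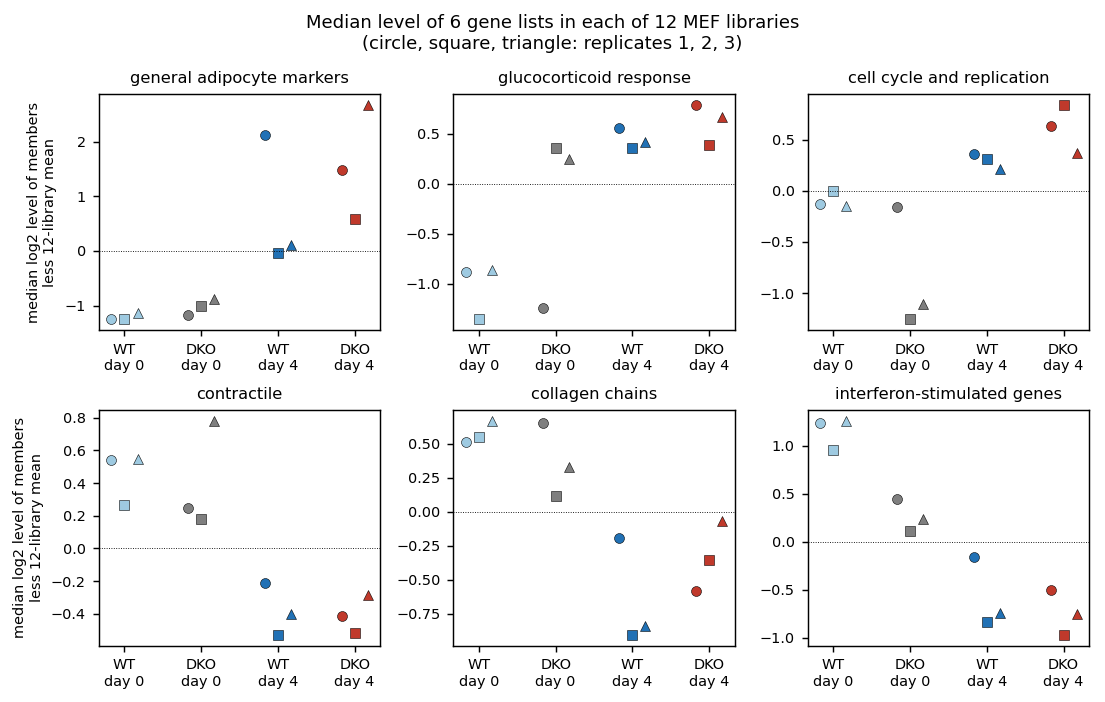
Median over the tested members of each of 6 gene lists of log2(CPM + 0.5) less the gene's mean over 12 libraries (up), in WT and DKO MEFs at day 0 and day 4; circles, squares and triangles are replicates 1, 2 and 3. In the cell cycle list, DKO replicates 2 and 3 at day 0 lie at -1.25 and -1.10, below the other libraries, and in the glucocorticoid list they lie at 0.36 and 0.25, above the other day 0 libraries.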

How the data were processed

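RNA-seq of mouse MEFs was analysed from the expected counts per gene that the authors deposited, which per the labels were made with RSEM 1.3.0 and STAR 2.7.0f after trimming with cutadapt 1.18, on mm10. Expected counts were rounded to whole numbers. Genes were filtered with filterByExpr, scaled by TMM and tested with edgeR 4.0.16 (robust quasi-likelihood, R 4.3.3) on the 6 DKO libraries, with Benjamini-Hochberg adjustment over all genes tested. Called means adjusted p under 0.05 and a fold of at least 1.5. The difference from WT was the interaction of genotype and day over 12 libraries. Groups came from the labels. Scripts were tested on simulated data. Alternatives used limma 3.58.1 and DESeq2 1.42.0, other filters and scalings, and each library left out.

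The genes and the 39 gene and marker lists were chosen with earlier results of these data known. Named were the genes the study names, the HMG genes, and up to 4 called members with the smallest p per list and direction, with list-defining genes. Also named were the 10 largest changes and the 5 smallest p in each direction among called genes whose days did not overlap. Unnamed gene models such as Gm and Rik were left out of these rankings, and the largest changes needed a mean of at least 5 CPM in the higher day. Fkbp5, Zbtb16, Tsc22d3, Pdk4, Hif3a, Klf9, Klf15, Fasn, Orm1, Nr2f2, Nr3c1, Srebf1, Lyz2, Pdgfra, Prrx1, Adrb3, Ppara, Cox7a1, Mki67, Col3a1, Lep and Cidea were chosen after their values were seen. Promoters came from RefSeq tables. A few genes that the naming rule picks are not reported here.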

Additional observations from a re-analysis of the deposited data

Results flagged for a closer look

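Mmp2, a gelatinase of the matrix, was taken up because its days did not overlap in either genotype and lay in opposite order. In DKO cells it was at 791, 1747 and 845 CPM at day 0 and 759, 483 and 669 CPM at day 4, and in WT cells at 684, 675 and 704 CPM at day 0 and 853, 895 and 860.2 CPM at day 4. The log2 fold change was -0.80 in DKO and 0.35 in WT cells. The difference was -1.14 ± 0.38 (SE), with an unadjusted edgeR interaction p of 0.0116 and an adjusted p of 0.662 over 12 libraries, so it was not called. Replicate 2 of DKO day 0 was the highest DKO library, and without it the log2 fold change in DKO cells was -0.35. The cause was not tested.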

How the results depend on the processing

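Counts of genes called are given as higher and lower at day 4. Leaving out each library in turn gave 594 to 1892 higher and 749 to 2250 lower. With spread estimated from all 24 MEF libraries, 2091 were higher and 2716 lower. A threshold of 1 on the log2 scale left 862 higher and 1280 lower. The other settings stayed within 1.5 times of the main counts (1501 and 1809), and with library size alone in place of TMM, which moved the median log2 fold change of all genes to 0.11, 1887 were higher and 1603 lower. For the difference between genotypes, DESeq2 called 3 more positive and 4 more negative, all 24 libraries gave 0 and 1, and leaving out single libraries gave 0 to 157 and 0 to 66, with the top values without replicate 1 of DKO day 0. With the replicate number as a block, 1459 were higher and 1765 lower, and 0 differed between genotypes. The labels do not say that numbers pair the cultures. Same-numbered DKO libraries correlated at -0.13, 0.18 and 0.38 in their deviations from the group means, and day 0 replicate 1 did not correlate best with its own number. With replicate 1 as the only day 0 library, Pdk4 and Hif3a, below 0 in the full set, had log2 fold changes of 3.53 and 3.22, and the cause was not tested. Lists with counts of 1 or 2 often lost them without a library. With 3 cultures per day the counts moved with single libraries, and so did calls of single genes. Of 171 named genes called, 67 lost the call without replicate 1 of day 4 and 44 without replicate 3 of day 0. Without replicates 2 and 3 of day 4 in turn, 35 and 33 lost it, and without replicates 1 and 2 of day 0, 22 and 11. Batf lost its call whichever single library was left out. At few day 0 counts the folds of Plin1, Adipoq and Retn are imprecise. That of Car3 is imprecise too. The effect of depth on the counts was not tested.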

Other observations

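The following genes were chosen after their values were seen, and no cause was tested. Replicate 2 of day 0, which stood apart on the first principal component, was the highest of the 3 day 0 libraries in Hmox1, Gclm and Nqo1, which are known to respond to oxidative stress. Hmox1, heme oxygenase 1, was at 148, 868 and 257 CPM at day 0 and 1702, 659.9 and 972 CPM at day 4. Gclm, a subunit of the enzyme that starts glutathione synthesis, was at 40.1, 199.9 and 52.4 CPM at day 0 and 329, 159 and 195 CPM at day 4. Nqo1, a quinone reductase, was at 3.31, 20.3 and 6.92 CPM at day 0 and 67, 30.3 and 50.7 CPM at day 4. In Mt1 and Mt2, the metal-binding metallothioneins that glucocorticoids also induce, day 0 levels were 21, 158 and 69.6 CPM and 11.1, 225 and 105 CPM and day 4 levels were 383, 209.6 and 276 CPM and 501, 309 and 383 CPM.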
